A study of Homo sapiens with 32 samples.

Results

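LNCaP is a human prostate cancer cell line grown from a lymph node metastasis. It depends on androgen for full growth. C4-2B is its castration-resistant derivative, selected through passage of LNCaP cells in castrated mice and recovered from a bone metastasis. The comparison made here is between the lines as they stood before any treatment: 4 C4-2B and 4 LNCaP libraries, which are 8 of the 32 libraries of the series. All 8 cultures received the control siRNA (siCTRL) and no thapsigargin (TG), and the series design calls the cells without TG vehicle-treated. They were chosen by their labels alone. The remaining 24 libraries are the same lines given TG, which empties the calcium store of the endoplasmic reticulum, siRNA against MOCOS (siMOCOS), or both. Each siMOCOS group pools 2 different siRNAs, with 2 libraries of each, and the deposited columns do not say which library had which. Both lines were grown in RPMI 1640 with 10% fetal bovine serum. The series describes the replicates as biological. Each line is a single line, so the p-values cover the spread between cultures of these lines and not between tumours.

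Androgen signalling shapes the luminal prostate cell. Androgen raises genes such as KLK3, which encodes prostate-specific antigen, while lowering others such as the enzymes that glucuronidate androgen. Castration-resistant cells grow with little androgen. LNCaP cells are also known for an ETS-factor rearrangement at ETV1.

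The deposited values are length-scaled expected counts per gene, not counted reads, and the counts below are these estimates. Levels are given in CPM, a count relative to the scaled total of its library. Means are given ± SD over the 4 libraries of a line. The C4-2B libraries held 12426702 to 18369998 counts and the LNCaP libraries 12144109 to 19885479. Rank correlations between libraries ran from 0.978 to 0.996 within C4-2B and from 0.988 to 0.995 within LNCaP, against 0.923 to 0.954 between the lines. All 14 luminal epithelial markers were detected in both lines, and 6 of 8 basal markers stayed under 1 CPM in every library. Immune markers summed to at most 3.18 CPM in a C4-2B library and 7.55 CPM in a LNCaP library, and endothelial markers to at most 1.25 CPM in C4-2B and 2.79 CPM in LNCaP. The libraries also differed in how strongly a gene's level followed its GC content. The rank correlation between a gene's deviation from its mean and its GC content was -0.67, -0.14, 0.45 and 0.56 in C4-2B replicates 1 to 4, and -0.31, 0.33, 0.35 and -0.24 in LNCaP replicates 1 to 4. The log2 change between the lines rose with GC content across genes (Spearman 0.38 over 12337 genes, which are not independent). Its median was -0.19 in the lowest GC bin of equal size and 0.41 in the highest, of 4 bins. The part of this trend in the results was not tested. Counts from a fit with GC and length offsets, which leaves a rank correlation of 0.01, therefore stand beside many of the list counts below.

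Of 12991 genes tested, 5917 (45.5%) differed between C4-2B and LNCaP at an adjusted p under 0.05. These are the genes called below. Of all genes tested, 3013 (23.2%) were higher and 2904 (22.4%) lower in C4-2B. A difference of at least 2-fold was called for 1921 genes (14.8%), 1011 higher (7.78%) and 910 lower (7%). With the GC and length offsets the calls were 2492 higher and 3381 lower, and at least 2-fold 692 higher and 994 lower, so the share of calls that were higher was 42.4% in place of 50.9%. Of the 1921 genes called at 2-fold, 1805 were also called in the same direction with the offsets. The shares of all genes set beside the lists below are those of the fit without offsets. List counts with the offsets are to be read against 2492 higher and 3381 lower of 12991. A bulk library cannot tell fewer cells that express a gene from less RNA in each cell.

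**Figure D1:**
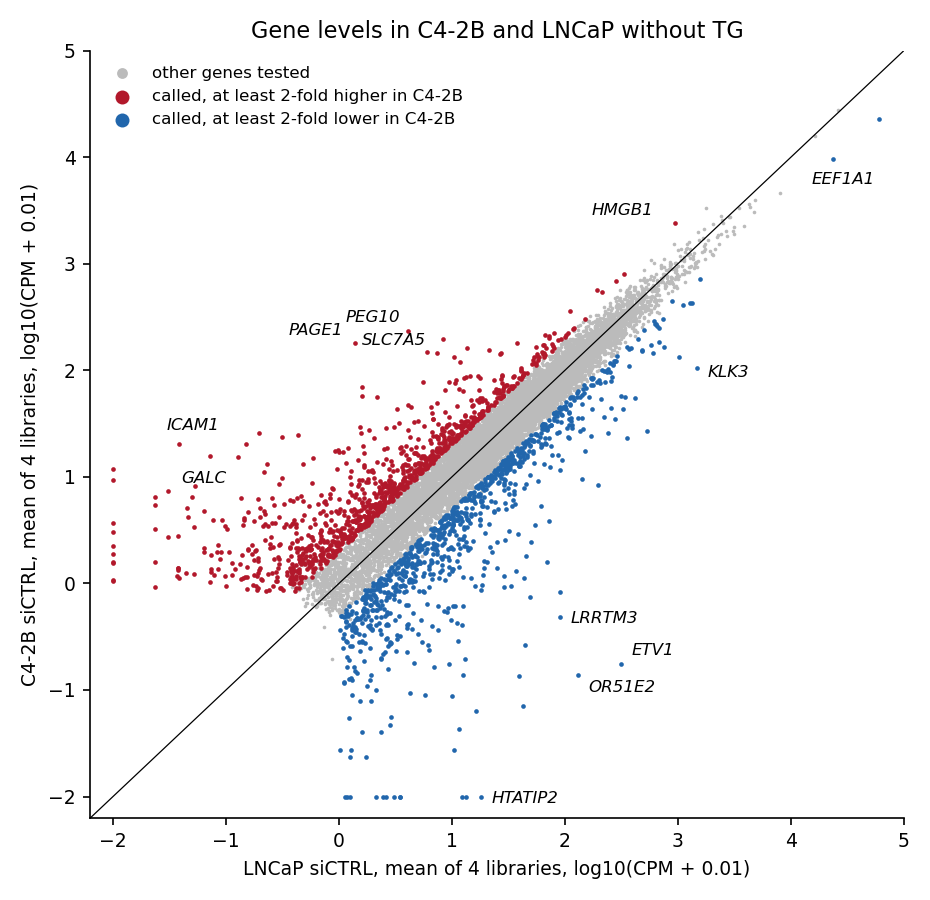
Mean level of each gene tested in C4-2B (vertical axis) and LNCaP (horizontal axis), both as log10(CPM + 0.01) over 4 siCTRL libraries without TG. Most genes lie along the line of equal level, and the coloured genes, called at 2-fold or more, include genes near 0 in a single line such as ICAM1 and ETV1.

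The named genes with the widest gaps were nearly silent in 1 line. HTATIP2, an oxidoreductase-like protein also called TIP30, on chromosome 11, had 0 CPM in all 4 C4-2B libraries, against 18.7, 19.7, 16.7 and 17.2 CPM in the LNCaP libraries. No C4-2B library had a count for it. The level in C4-2B was at least 371-fold lower, taking 3 counts over the group as the floor. ECHDC1, which removes side products of fatty acid synthesis, had 0 CPM in all 4 C4-2B libraries, against 14.04, 14.5, 14.4 and 10.1 CPM in the LNCaP libraries, at least 273-fold lower in C4-2B. CPQ, a secreted carboxypeptidase, was likewise at 0 in all C4-2B libraries against 12.2, 14.7, 10.9 and 10.9 CPM in LNCaP, at least 249.96-fold lower. ETV1, the ETS transcription factor, had 0.589, 0.0803, 0 and 0 CPM in the C4-2B libraries, against 313, 299.9, 299 and 339.9 CPM in the LNCaP libraries (log2 change -10.60, SE 0.37, adjusted p = 4.5e-11). OR51E2, an olfactory-type receptor enriched in prostate, had 0.321, 0, 0.187 and 0 CPM in the C4-2B libraries, against 121, 114, 118 and 172 CPM in the LNCaP libraries (log2 change -9.74, SE 0.34, adjusted p = 4.5e-11). All 4 libraries of C4-2B lay under 1 CPM for both genes, while LNCaP held them among its well-expressed genes. LRRTM3, a synaptic adhesion protein, had 0.535, 0.562, 0.375 and 0.415 CPM in the C4-2B libraries, against 89.7, 89.0, 86.0 and 99.6 CPM in the LNCaP libraries (log2 change -7.57, SE 0.17, adjusted p = 6.1e-13). The other large falls were FAM65B at 0.0602 ± 0.0884 CPM in C4-2B against 42.3 ± 3.62 CPM in LNCaP, the procollagen-processing protease TLL1 at 0.125 ± 0.117 CPM in C4-2B against 39.0 ± 3.29 CPM in LNCaP, the ephrin receptor EPHA7 at 0.0329 ± 0.0381 CPM in C4-2B against 11.5 ± 2.27 CPM in LNCaP, and the mitochondrial J-domain protein DNAJC15 at 0.0173 ± 0.0346 CPM in C4-2B against 10.4 ± 2.59 CPM in LNCaP. LOC102724843 and TRIM49D2P also fell, to 0.0535 ± 0.107 CPM in C4-2B against 16.3 ± 11.9 CPM in LNCaP and 0.254 ± 0.508 CPM in C4-2B against 44.2 ± 8.50 CPM in LNCaP. TRIM49D2P has near-identical copies in the genome, so its level depends on how reads were shared among them.

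Other genes were expressed in C4-2B and near 0 in LNCaP. ICAM1, the intercellular adhesion molecule that leukocyte integrins bind, had 15.9, 21.3, 21.9 and 21.7 CPM in the C4-2B libraries, against 0, 0.114, 0 and 0 CPM in the LNCaP libraries. A total of 2 estimated counts lay behind the LNCaP value, which puts the ratio of totals at 595 (95% Poisson interval 165 to 4911). RND3, a small GTP-binding protein that restrains contractile signalling, had 22.1, 22.8, 18.9 and 17.1 CPM in the C4-2B libraries, against 0.160, 0.0572, 0.0819 and 0.264 CPM in the LNCaP libraries (log2 change 7.15, SE 0.29, adjusted p = 1.6e-10). PAGE1, an X-linked gene normally restricted to testis, had 186, 129, 199 and 211 CPM in the C4-2B libraries, against 1.33, 1.37, 1.23 and 1.58 CPM in the LNCaP libraries (log2 change 7.03, SE 0.20, adjusted p = 6.8e-12). GALC, the lysosomal galactosylceramidase, had 15.7 ± 3.55 CPM in C4-2B against 0.0624 ± 0.0485 CPM in LNCaP, and the NMDA receptor subunit GRIN2C had 15.4 ± 3.00 CPM in C4-2B against 0.118 ± 0.0324 CPM in LNCaP. MKX, a homeobox factor of tendon, had 7.34 ± 0.940 CPM in C4-2B against 0.0205 ± 0.0410 CPM in LNCaP, DENND2D, an exchange factor for Rab proteins, 6.45 ± 0.590 CPM in C4-2B against 0.0133 ± 0.0267 CPM in LNCaP, and RGL3, an exchange factor for Ral proteins, 5.41 ± 1.61 CPM in C4-2B against 0.0133 ± 0.0267 CPM in LNCaP. SLC25A43, of the mitochondrial carrier family, had 8.28 ± 0.704 CPM in C4-2B against 0.0429 ± 0.0858 CPM in LNCaP, and MGC70870 had 5.07 ± 1.04 CPM in C4-2B against 0.0348 ± 0.0414 CPM in LNCaP. NNT-AS1 was at 0 in every LNCaP library and at 9.15, 12.5, 7.87 and 7.82 CPM in C4-2B, at least 186-fold higher. It is antisense to NNT, and whether the counting used the strand is not given in the sources used here. BOLA2 was also at 0 in LNCaP and at 11.9 ± 5.28 CPM in C4-2B, but it has near-identical copies and its level is uncertain.

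The 300 bases around the start of HTATIP2 and ICAM1 are shown because these genes were silent in opposite lines. They run from 250 bases before to 50 after the RefSeq start, in GRCh38.p14, and capitals mark each CG dinucleotide, the site at which DNA can be methylated. HTATIP2 lies on chr11:20363464-20363763, plus strand, and ICAM1 on chr19:10270870-10271169, plus strand.
HTATIP2: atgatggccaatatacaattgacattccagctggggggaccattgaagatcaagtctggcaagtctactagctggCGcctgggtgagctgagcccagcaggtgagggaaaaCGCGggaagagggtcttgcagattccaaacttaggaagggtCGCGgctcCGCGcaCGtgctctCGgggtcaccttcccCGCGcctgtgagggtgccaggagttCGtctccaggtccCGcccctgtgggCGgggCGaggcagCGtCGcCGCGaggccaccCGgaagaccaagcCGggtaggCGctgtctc
ICAM1: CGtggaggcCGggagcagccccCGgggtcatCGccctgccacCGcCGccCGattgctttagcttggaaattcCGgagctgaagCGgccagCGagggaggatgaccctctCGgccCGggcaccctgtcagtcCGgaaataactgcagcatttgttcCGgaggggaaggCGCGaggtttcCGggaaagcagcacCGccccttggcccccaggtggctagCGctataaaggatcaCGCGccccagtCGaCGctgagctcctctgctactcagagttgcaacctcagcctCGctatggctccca
HTATIP2 has 22 CG and ICAM1 24, each in its only window. The median over all 35116 windows was 14. It was 29 over the 10110 tested genes with such a window when the richest window was taken for each gene. Genes whose every window held under 5 CG made up 6.42% of the 218 genes called at least 4-fold higher and 20.3% of the 207 called at least 4-fold lower, against 2.78% of all 10110. Methylation was not measured, and the letters are the reference genome's, not those of either line.

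KLK3, the best-known androgen-induced gene, was lower in C4-2B. It had 99.4, 76.0, 124 and 120.0 CPM in the C4-2B libraries, against 1400.1, 1698, 1508 and 1293 CPM in the LNCaP libraries (log2 change -3.81, SE 0.17, adjusted p = 4.6e-10), a gap many times the spread within either line. FOXA1, a factor that opens chromatin in prostate cells, had 371 ± 54.2 CPM in C4-2B against 455 ± 74.6 CPM in LNCaP, and the homeobox factor HOXB13 237 ± 37.7 CPM in C4-2B against 231 ± 16.7 CPM in LNCaP, neither called. HOXA13 and HOXD13, homeobox factors of the posterior body, were higher at 1.96 ± 0.842 CPM in C4-2B against 0.0739 ± 0.101 CPM in LNCaP and 1.73 ± 0.418 CPM in C4-2B against 0.182 ± 0.112 CPM in LNCaP. Of 18 lineage factors tested, 6 were higher and 6 lower (33.3% each, against 23.2% and 22.4% of all genes). The median log2 change was 0.14, and with the offsets 5 were higher and 8 lower (median -0.22).

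Of 44 androgen-induced genes tested, 11 were higher and 15 lower in C4-2B, with a median log2 change of -0.12 against 0.01 for all genes (10 higher and 18 lower with the offsets). The falls included STEAP2, a metalloreductase, at 426 ± 82.0 CPM in C4-2B against 1282 ± 137 CPM in LNCaP, the serine protease TMPRSS2 at 356 ± 8.91 CPM in C4-2B against 579 ± 17.9 CPM in LNCaP, the transporter-like SLC45A3 at 56.5 ± 9.93 CPM in C4-2B against 114 ± 12.5 CPM in LNCaP, the coagulation factor F5 at 0.531 ± 0.129 CPM in C4-2B against 8.95 ± 0.610 CPM in LNCaP, and BMPR1B, a BMP receptor, at 9.55 ± 1.11 CPM in C4-2B against 141 ± 16.4 CPM in LNCaP. The rises included AZGP1, a secreted zinc-binding glycoprotein, with 162, 141, 161 and 155 CPM in the C4-2B libraries, against 20.7, 20.5, 20.2 and 24.0 CPM in the LNCaP libraries (log2 change 2.86, SE 0.11, adjusted p = 1.5e-10). FKBP5, a chaperone of steroid receptors, rose to 490.4 ± 58.8 CPM in C4-2B against 289.8 ± 9.65 CPM in LNCaP, NDRG1, also a hypoxia-induced gene, to 198 ± 27.2 CPM in C4-2B against 93.0 ± 12.7 CPM in LNCaP, and the actin-regulating MICAL1 to 46.2 ± 9.64 CPM in C4-2B against 11.0 ± 1.89 CPM in LNCaP. KLK2, a neighbour of KLK3 on chromosome 19, had 100.4 ± 27.0 CPM in C4-2B against 115 ± 9.94 CPM in LNCaP and was not called (adjusted p = 0.34). The androgen-induced genes were thus 25% higher and 34.1% lower, against 23.2% and 22.4% of all genes, so the share higher was near the background. Apart from KLK2, the libraries of those named here did not overlap between the lines. The same held for 5279 of all 12991 genes tested.

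All 9 androgen-repressed genes tested were called, against 45.5% of all genes. Of the 9, 8 were lower (88.9%) and 1 higher (11.1%), against 22.4% and 23.2% of all genes. Their median log2 change was -2.81. UGT2B17, which inactivates androgen by glucuronidation, had 1.87, 0.963, 0.749 and 1.66 CPM in the C4-2B libraries, against 43.0, 36.9, 36.1 and 32.6 CPM in the LNCaP libraries (log2 change -4.79, SE 0.23, adjusted p = 1.1e-09). UGT2B15, with the same function, had 6.26, 3.21, 5.18 and 5.26 CPM in the C4-2B libraries, against 31.4, 22.9, 26.9 and 21.6 CPM in the LNCaP libraries (log2 change -2.35, SE 0.20, adjusted p = 3.9e-07). The UGT2B genes are close copies of each other on chromosome 4, so reads may be split between them. BCHE, which encodes butyrylcholinesterase, had 5.35 ± 1.08 CPM in C4-2B against 61.0 ± 7.59 CPM in LNCaP, the opioid receptor OPRK1 1.14 ± 0.306 CPM in C4-2B against 12.5 ± 2.96 CPM in LNCaP, DDC, which makes dopamine and serotonin, 15.9 ± 1.78 CPM in C4-2B against 86.4 ± 9.002 CPM in LNCaP, and CAMK2N1, an inhibitor of the kinase CaMKII, 185 ± 23.6 CPM in C4-2B against 675 ± 36.0 CPM in LNCaP. ACKR3, a chemokine-scavenging receptor, was the exception at 117 ± 28.8 CPM in C4-2B against 53.7 ± 6.10 CPM in LNCaP. With the offsets the counts were again 8 lower and 1 higher.

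**Figure D2:**
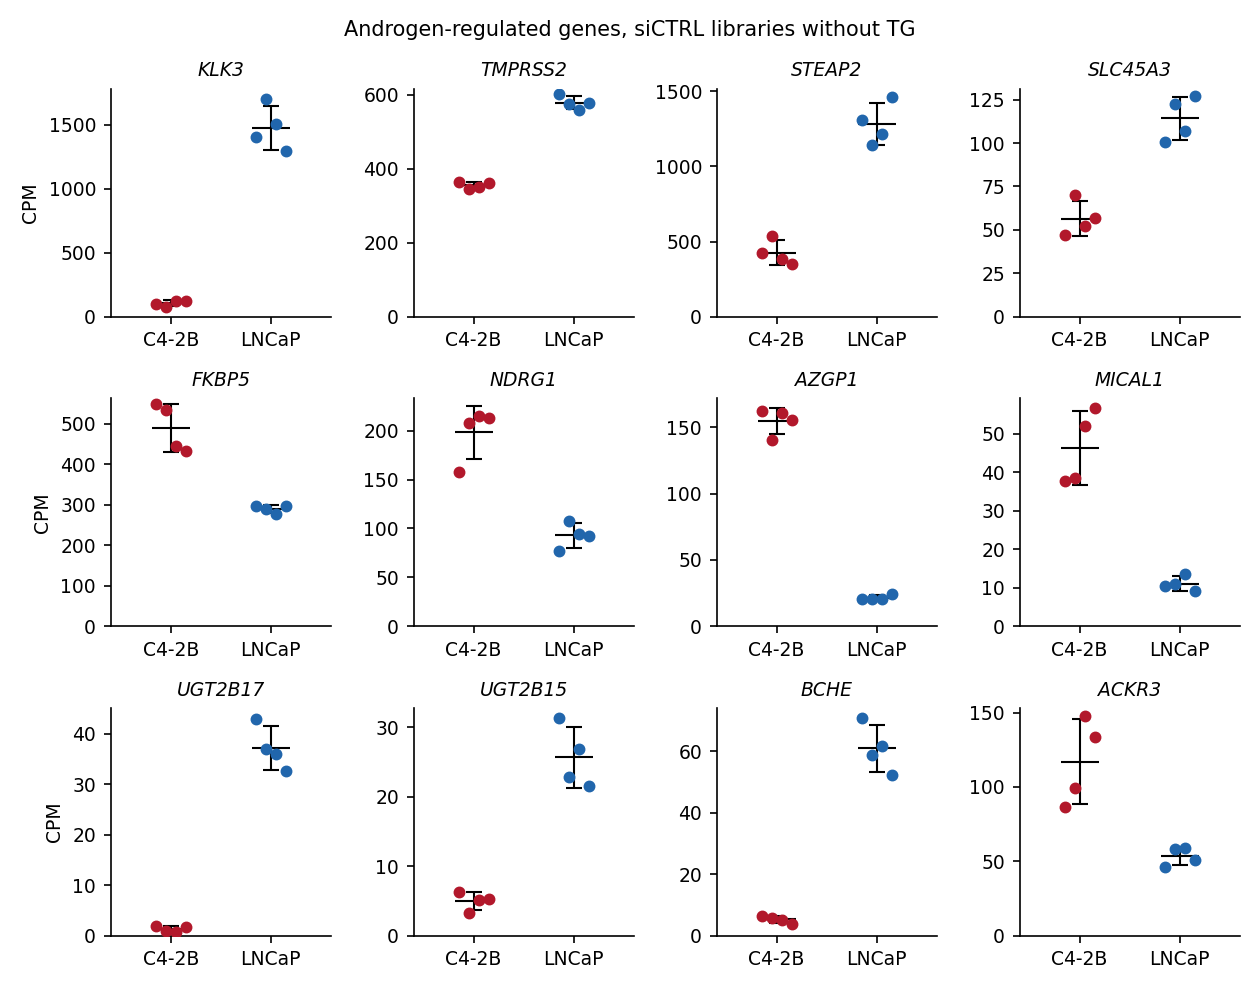
Level of androgen-induced genes (KLK3 to MICAL1) and androgen-repressed genes (UGT2B17 to ACKR3) in each siCTRL library without TG, in CPM, with C4-2B left and LNCaP right. Points are libraries and bars the mean ± SD of 4. No gene shown overlaps between the lines, as was so for 5279 of all 12991 genes tested. FKBP5, NDRG1, AZGP1, MICAL1 and ACKR3 are the genes shown that are higher in C4-2B.

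The starts of 3 genes from both lists that fell carry the half-site AGAACA, or TGTTCT on the other strand, from which androgen response elements are built. Windows are as above, capitals mark the half-site, and the minus-strand windows are written in the direction of the gene. KLK3 lies on chr19:50854665-50854964, plus strand, UGT2B15 on chr4:68670603-68670902, minus strand, and SI, an intestinal disaccharidase that is also androgen-repressed, on chr3:165078447-165078746, minus strand.
KLK3: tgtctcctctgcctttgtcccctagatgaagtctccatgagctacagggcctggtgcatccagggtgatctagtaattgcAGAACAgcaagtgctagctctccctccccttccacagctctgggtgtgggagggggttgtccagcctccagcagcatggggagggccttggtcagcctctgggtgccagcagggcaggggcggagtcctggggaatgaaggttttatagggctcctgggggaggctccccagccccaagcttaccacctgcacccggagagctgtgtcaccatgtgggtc
UGT2B15: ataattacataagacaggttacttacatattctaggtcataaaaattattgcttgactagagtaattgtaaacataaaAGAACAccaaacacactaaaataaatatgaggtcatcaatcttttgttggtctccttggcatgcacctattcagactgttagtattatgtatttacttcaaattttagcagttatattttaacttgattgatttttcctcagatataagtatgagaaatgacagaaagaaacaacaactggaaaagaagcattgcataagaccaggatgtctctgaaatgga
SI: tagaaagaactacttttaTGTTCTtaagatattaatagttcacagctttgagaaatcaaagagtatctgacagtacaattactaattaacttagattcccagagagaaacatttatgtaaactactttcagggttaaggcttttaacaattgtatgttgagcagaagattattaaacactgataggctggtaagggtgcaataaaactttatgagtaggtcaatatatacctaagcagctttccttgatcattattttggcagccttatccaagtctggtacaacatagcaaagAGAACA
The half-site begins 170 bases before the start in KLK3 and 172 before it in UGT2B15. SI holds it 232 bases before and 44 after the start. The letters are common: 14.8% of the 35116 windows in the table hold them, and 12.5% of tested genes do so in at least 1 window. Of the androgen-induced genes with a window, 5 of 32 held the half-site, and of the androgen-repressed genes 2 of 5. Binding of a factor was not measured.

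Steroid enzymes held genes called in each direction, with the share higher near that of all genes. Of 16 genes of steroid synthesis and inactivation tested, 4 were higher (25%) and 7 lower (43.8%) in C4-2B, against 23.2% and 22.4% of all genes. With the offsets 4 were higher and 8 lower. The UGT2B genes were among the falls. RDH11, a retinal reductase of prostate, had 433 ± 49.4 CPM in C4-2B against 1342 ± 63.2 CPM in LNCaP (log2 change -1.63, SE 0.12, adjusted p = 7.9e-08). SRD5A1, a steroid 5-alpha reductase that converts testosterone to dihydrotestosterone, had 9.09 ± 0.853 CPM in C4-2B against 18.1 ± 0.886 CPM in LNCaP. CYP1B1, which hydroxylates estrogens, rose to 4.62 ± 0.574 CPM in C4-2B against 0.147 ± 0.0442 CPM in LNCaP, and CYP11A1, which cleaves the side chain of cholesterol to begin steroid synthesis, to 3.496 ± 0.617 CPM in C4-2B against 0.908 ± 0.603 CPM in LNCaP. Among nuclear receptors and their coregulators 14 of 27 were higher (51.9%) and 3 lower (11.1%), against 23.2% and 22.4% of all genes. With the offsets 10 were higher and 3 lower. The retinoic acid receptors RARA and RARG had 18.7 ± 4.02 CPM in C4-2B against 7.77 ± 0.310 CPM in LNCaP and 17.8 ± 0.926 CPM in C4-2B against 7.92 ± 0.796 CPM in LNCaP, and NR2F2, an orphan receptor, 164 ± 11.9 CPM in C4-2B against 86.3 ± 2.50 CPM in LNCaP. NRIP1, a corepressor, fell to 45.3 ± 7.54 CPM in C4-2B against 96.9 ± 12.5 CPM in LNCaP, and the glucocorticoid receptor NR3C1 to 1.30 ± 0.263 CPM in C4-2B against 3.04 ± 0.391 CPM in LNCaP. Without C4-2B replicate 2 the nuclear receptor list had 6 lower.

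Luminal markers were expressed in both lines and mostly lower in C4-2B. The 14 luminal markers summed to between 3838 and 4431 CPM in C4-2B and between 7557 and 7970 CPM in LNCaP. The widest gaps in that sum were those of KLK3 and STEAP2, also counted as androgen-induced genes. Of the 14, 9 were lower (64.3%) and 1 higher (7.14%), against 22.4% and 23.2% of all genes (11 and none with the offsets). With TG 8 of 13 were lower, and in siMOCOS cells 4 of 14 were, both without and with TG. Of all genes, 21.7%, 13.3% and 11.4% were lower in these conditions. Keratin 18 and E-cadherin were near equal: KRT18 had 178 ± 19.5 CPM in C4-2B against 188 ± 27.2 CPM in LNCaP and CDH1 923 ± 127 CPM in C4-2B against 955 ± 68.9 CPM in LNCaP, neither called. FOLH1, prostate-specific membrane antigen, fell to 930.1 ± 126 CPM in C4-2B against 1282 ± 172 CPM in LNCaP (adjusted p = 0.011). KRT19 rose at a low level to 1.58 ± 0.986 CPM in C4-2B against 0.563 ± 0.302 CPM in LNCaP. The lines overlapped for it, and this single luminal rise was not called with the offsets or without C4-2B replicate 3, LNCaP replicate 1 or LNCaP replicate 4. Of the basal markers a single gene was tested, the integrin subunit ITGA6, at 62.0 ± 12.8 CPM in C4-2B against 93.7 ± 8.69 CPM in LNCaP.

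Markers of a neuroendocrine state were mostly silent in both lines. Of 35 such genes 24 stayed under 1 CPM in every library, 10 of them at 0 throughout. Of 8 tested 4 were higher (50%) and 2 lower (25%), against 23.2% and 22.4% of all genes. With the offsets 2 were higher and 2 lower. PEG10, a retrotransposon-derived gene known in neuroendocrine prostate cancer, had 209, 343, 203 and 190.4 CPM in the C4-2B libraries, against 3.58, 4.86, 4.10 and 3.87 CPM in the LNCaP libraries (log2 change 5.84, SE 0.22, adjusted p = 9.1e-11). ONECUT2, a transcription factor of liver and neurons, had 38.2 ± 8.86 CPM in C4-2B against 18.9 ± 3.21 CPM in LNCaP, and DLL3, a Notch ligand, 2.598 ± 0.780 CPM in C4-2B against 1.28 ± 0.340 CPM in LNCaP. The synaptic vesicle protein SYP had 3.25 ± 0.723 CPM in C4-2B against 1.597 ± 0.608 CPM in LNCaP. ENO2, neuron-specific enolase, fell to 2.62 ± 0.275 CPM in C4-2B against 12.3 ± 0.932 CPM in LNCaP, and the synaptotagmin SYT4 to 113 ± 4.21 CPM in C4-2B against 268 ± 22.5 CPM in LNCaP. DLL3 and SYP stayed at low levels in both lines.

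Mesenchymal and bone-associated genes also split. Of 6 mesenchymal genes tested 2 were higher (33.3%) and 3 lower (50%), against 23.2% and 22.4% of all genes. The offsets gave 2 higher and 3 lower. FN1 was lower at 257 ± 91.6 CPM in C4-2B against 399 ± 31.2 CPM in LNCaP, with the lines overlapping. TWIST1, a driver of epithelial-mesenchymal transition, was at 0 in all C4-2B libraries against 3.42, 3.61, 3.28 and 3.61 CPM in LNCaP, at least 71.4-fold lower. Vimentin (VIM) was higher at 16.6 ± 1.52 CPM in C4-2B against 4.71 ± 1.15 CPM in LNCaP, and smooth muscle actin ACTA2 lower at 1.21 ± 0.310 CPM in C4-2B against 6.73 ± 1.01 CPM in LNCaP. Of 10 bone-associated genes tested 4 were higher and 4 lower, 40% each against 23.2% and 22.4% of all genes. The offsets gave 4 higher and 4 lower. BMP6, a bone morphogenetic protein, had 13.4 ± 1.70 CPM in C4-2B against 1.14 ± 0.341 CPM in LNCaP (log2 change 3.56, SE 0.22, adjusted p = 1.2e-08), and BMP7 1.69 ± 0.157 CPM in C4-2B against 0.0778 ± 0.0737 CPM in LNCaP. CXCL12, the ligand of the receptor CXCR4 in marrow, had 4.34 ± 1.01 CPM in C4-2B against 0.479 ± 0.244 CPM in LNCaP. RUNX2, the osteoblast transcription factor, fell to 2.15 ± 0.373 CPM in C4-2B against 11.7 ± 2.37 CPM in LNCaP. The antagonist of BMP signalling SMAD6 was higher at 6.40 ± 1.54 CPM in C4-2B against 1.38 ± 0.148 CPM in LNCaP, and the receptor BMPR1B fell.

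Of 20 growth factor receptors and IGF-axis genes tested, 7 were higher and 1, EPHA7, lower, so 40% were called against 45.5% of all genes. With the offsets 7 were higher and 2 lower at a median log2 change of -0.04, and without C4-2B replicate 2 or LNCaP replicate 4, 2 were lower. EPHA3 had 84.9 ± 18.1 CPM in C4-2B against 12.7 ± 1.77 CPM in LNCaP, EPHA2 4.88 ± 1.08 CPM in C4-2B against 1.57 ± 0.1499 CPM in LNCaP, and IGFBP5, a binding protein of insulin-like growth factors, 3.60 ± 0.421 CPM in C4-2B against 0.373 ± 0.148 CPM in LNCaP. The epidermal growth factor receptor EGFR had 57.6 ± 11.6 CPM in C4-2B against 62.2 ± 5.94 CPM in LNCaP and ERBB2 135 ± 18.1 CPM in C4-2B against 166 ± 36.4 CPM in LNCaP, neither called. Among Wnt genes 10 of 25 were higher (40%) and 2 lower (8%), against 23.2% and 22.4% of all genes. With the offsets 7 were higher and 3 lower, at a median of -0.03 in place of 0.19. FZD4, a Frizzled receptor, had 39.6 ± 8.65 CPM in C4-2B against 6.71 ± 0.675 CPM in LNCaP (log2 change 2.56, SE 0.17, adjusted p = 2.8e-08), LGR4, the R-spondin receptor, 66.7 ± 8.69 CPM in C4-2B against 24.4 ± 1.85 CPM in LNCaP, while the ligand WNT3 was lower at 0.572 ± 0.158 CPM in C4-2B against 2.51 ± 0.408 CPM in LNCaP. Of 12 integrins and cadherins tested 6 were higher (50%) and 3 lower (25%), against 23.2% and 22.4% of all genes. With the offsets 5 were higher and 3 lower. CDH3, placental cadherin, was higher at 9.08 ± 0.861 CPM in C4-2B against 2.91 ± 0.270 CPM in LNCaP, and CDH26 lower at 2.90 ± 0.713 CPM in C4-2B against 38.7 ± 5.49 CPM in LNCaP. Of 25 ion channel and calcium handling genes tested, 5 were higher (20%) and 11 lower (44%), against 23.2% and 22.4% of all genes. With the offsets 3 were higher and 13 lower. The cold-sensing channel TRPM8, an androgen target, fell to 13.4 ± 0.935 CPM in C4-2B against 31.1 ± 2.95 CPM in LNCaP, and the plasma membrane calcium pump ATP2B4 to 39.95 ± 9.89 CPM in C4-2B against 109 ± 10.3 CPM in LNCaP. The potassium channel KCNK1 rose to 28.5 ± 2.50 CPM in C4-2B against 2.599 ± 0.574 CPM in LNCaP. ATP2A2, the endoplasmic reticulum calcium pump that TG blocks, had 714 ± 97.2 CPM in C4-2B against 728 ± 51.6 CPM in LNCaP and was not called.

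Mitotic genes were higher in C4-2B as a group. Of 32 G2/M genes tested, 23 were higher and none lower, a share of 71.9% against 23.2% of all genes. The median log2 change was 0.60, and with the offsets 28 were higher and none lower. PLK1, the mitotic kinase, had 126, 125, 143 and 139 CPM in the C4-2B libraries, against 63.5, 69.9, 61.1 and 66.6 CPM in the LNCaP libraries (log2 change 1.03, SE 0.10, adjusted p = 2.7e-06). KIF20A, a kinesin of cytokinesis, had 125 ± 9.75 CPM in C4-2B against 63.6 ± 4.05 CPM in LNCaP, BIRC5, survivin, 71.6 ± 5.72 CPM in C4-2B against 37.6 ± 1.89 CPM in LNCaP, and CKS2, a cyclin-dependent kinase subunit, 117 ± 21.7 CPM in C4-2B against 55.3 ± 3.23 CPM in LNCaP. MKI67, the proliferation marker Ki-67, had 254 ± 92.6 CPM in C4-2B against 234 ± 26.8 CPM in LNCaP and was not called (adjusted p = 0.65). Among G1/S and replication genes 16 of 36 were higher and 5 lower (14 and 4 with the offsets). That is 44.4% higher and 13.9% lower before offsets, against 23.2% and 22.4% of all genes. Without C4-2B replicate 3 or 4, or LNCaP replicate 2 or 4, 3 were lower. MCM7 and MCM2, subunits of the replicative helicase, had 268 ± 3.94 CPM in C4-2B against 137 ± 9.08 CPM in LNCaP and 98.5 ± 13.8 CPM in C4-2B against 40.8 ± 8.23 CPM in LNCaP, and CDK6, which phosphorylates the RB protein, 23.5 ± 7.98 CPM in C4-2B against 7.59 ± 0.420 CPM in LNCaP. CDKN1A, the cell cycle inhibitor p21, had 30.7, 43.7, 41.6 and 40.7 CPM in the C4-2B libraries, against 78.4, 99.98, 89.5 and 105 CPM in the LNCaP libraries (log2 change -1.25, SE 0.14, adjusted p = 5.4e-06). Growth rates were not measured.

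SESN1, a stress-induced regulator of mTOR, had 15.8, 9.55, 12.2 and 11.8 CPM in the C4-2B libraries, against 78.3, 72.4, 63.9 and 83.6 CPM in the LNCaP libraries (log2 change -2.59, SE 0.16, adjusted p = 9.9e-09). The lines did not overlap. The death receptor FAS had 4.08 ± 0.504 CPM in C4-2B against 11.8 ± 1.74 CPM in LNCaP.

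Ribosomal protein genes leaned lower and respiratory genes higher. Of 74 cytosolic ribosomal protein genes, 29 were lower (39.2%) and 2 higher (2.7%), against 22.4% and 23.2% of all genes. The median log2 change was -0.30, and with the offsets 34 were lower and 1 higher. RPL7 had 1232 ± 111 CPM in C4-2B against 2005 ± 103 CPM in LNCaP and RPS24 1111 ± 149.8 CPM in C4-2B against 1757 ± 107 CPM in LNCaP. Both differences were under 2-fold. Without C4-2B replicate 2, 5 ribosomal genes were higher, without LNCaP replicate 1 none was, and without each of the others except LNCaP replicate 2, 1 was. EEF1A1, the elongation factor that brings tRNA to the ribosome, had 10882, 9629, 8924 and 9491 CPM in the C4-2B libraries, against 24424, 22532, 23707 and 23373 CPM in the LNCaP libraries (log2 change -1.27, SE 0.12, adjusted p = 1.2e-06). PABPC1, the poly(A)-binding protein, fell to 2270.3 ± 176 CPM in C4-2B against 3875 ± 544 CPM in LNCaP. GAS5 and ZFAS1, noncoding hosts of small nucleolar RNAs, had 30.5 ± 7.38 CPM in C4-2B against 115 ± 32.8 CPM in LNCaP and 32.7 ± 4.90 CPM in C4-2B against 91.6 ± 12.4 CPM in LNCaP. Ribosomal protein genes have many processed pseudogenes, so part of their reads may be placed elsewhere. Of 35 nuclear oxidative phosphorylation genes, 18 were higher and 2 lower (18 and 1 with the offsets). That is 51.4% higher and 5.71% lower before offsets, against 23.2% and 22.4% of all genes. Without C4-2B replicate 1, or LNCaP replicate 2, 3 or 4, 1 was lower. UQCRC1, a core subunit of complex III, had 141 ± 18.4 CPM in C4-2B against 84.5 ± 4.97 CPM in LNCaP, NDUFB9 of complex I 189.8 ± 31.2 CPM in C4-2B against 112 ± 7.86 CPM in LNCaP, and SDHB of complex II 49.5 ± 8.76 CPM in C4-2B against 30.3 ± 3.05 CPM in LNCaP. The rRNA symbol RNR2 took up to 85442 CPM in a library. RNR2 had 19874, 42123, 14755 and 14802 CPM in the C4-2B libraries, against 66984, 36443, 52002 and 85442 CPM in the LNCaP libraries, with the lines overlapping. The deposited table does not say which locus these symbols stand for.

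Of 26 cholesterol genes 11 were higher (42.3%) and 1 lower (3.85%), against 23.2% and 22.4% of all genes. The offsets gave 11 higher and 2 lower, and the main fit without LNCaP replicate 1 gave none lower. INSIG1, the sterol sensor partner of SCAP, had 428, 299, 363 and 343 CPM in the C4-2B libraries, against 123, 107, 109 and 104 CPM in the LNCaP libraries (log2 change 1.69, SE 0.13, adjusted p = 1.2e-07). MVD and EBP, enzymes of the pathway, had 30.6 ± 11.0 CPM in C4-2B against 9.01 ± 3.00 CPM in LNCaP and 144 ± 25.9 CPM in C4-2B against 65.0 ± 7.96 CPM in LNCaP. Among 26 fatty acid genes 8 were higher (30.8%) and 6 lower (23.1%), against 23.2% and 22.4% of all genes. With the offsets 8 were higher and 7 lower. FASN, fatty acid synthase, had 471, 939, 1006 and 828 CPM in the C4-2B libraries, against 347, 373, 405 and 199 CPM in the LNCaP libraries (log2 change 1.29, SE 0.24, adjusted p = 0.00053), and FADS2, a desaturase, 1539.9 ± 124 CPM in C4-2B against 931 ± 129.7 CPM in LNCaP. ELOVL7 and ELOVL6, which lengthen fatty acids, fell to 30.5 ± 2.43 CPM in C4-2B against 74.9 ± 4.17 CPM in LNCaP and 71.6 ± 8.53 CPM in C4-2B against 128 ± 8.63 CPM in LNCaP. Glycolysis and hypoxia genes gave 9 higher (31.0%) and 4 lower (13.8%) of 29, against 23.2% and 22.4% of all genes. They gave 4 higher and 9 lower with the offsets, so no direction is given for them. Without LNCaP replicate 4, 3 were higher, and without C4-2B replicate 3 or 4 or LNCaP replicate 1, 4 were. HIF1A itself had 149 ± 15.6 CPM in C4-2B against 287 ± 39.4 CPM in LNCaP (log2 change -0.95, SE 0.12, adjusted p = 3.3e-05).

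**Figure D3:**
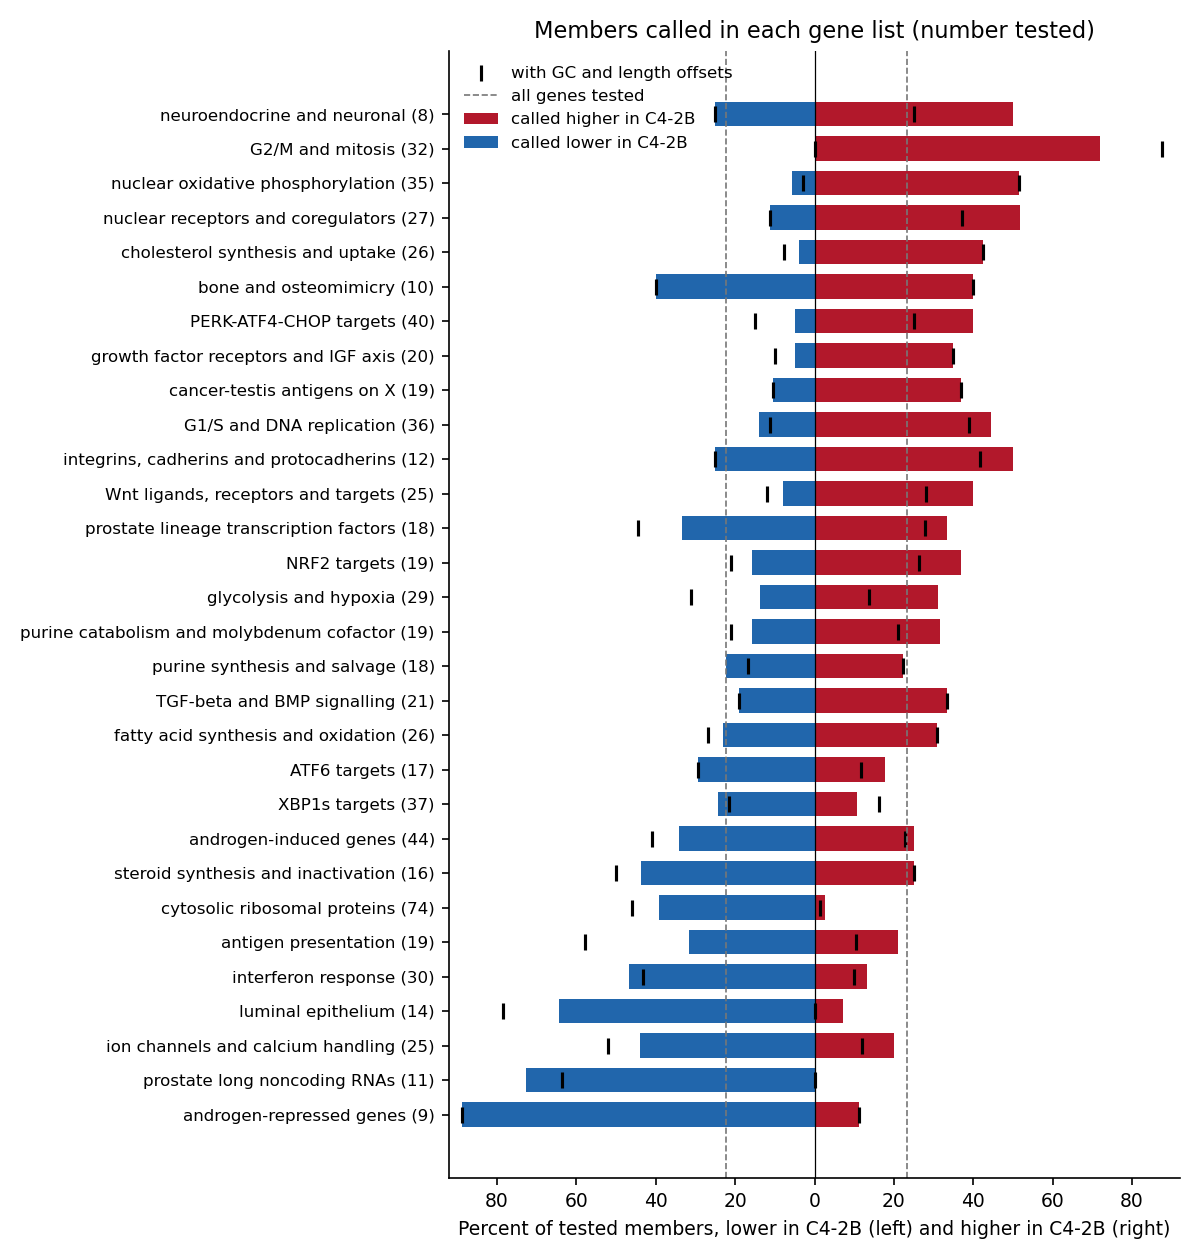
Percent of tested members of each gene list called higher (right, red) and lower (left, blue) in C4-2B than in LNCaP, siCTRL without TG, with the number tested in parentheses. Dashed lines are all genes tested in the fit without offsets (23.2% higher, 22.4% lower) and black ticks the counts with GC and length offsets. With the offsets 2492 of all 12991 genes were higher and 3381 lower, which the dashed lines do not show. G2/M genes reach 71.9% higher and androgen-repressed genes 88.9% lower.

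Endoplasmic reticulum stress, which the study induced with TG, had no uniform counterpart at baseline. HSPA5, the chaperone BiP, had 2402 ± 257 CPM in C4-2B against 2504 ± 183 CPM in LNCaP, and XBP1 63.4 ± 6.33 CPM in C4-2B against 66.6 ± 4.51 CPM in LNCaP, neither called. Of 37 XBP1s targets 4 were higher (10.8%) and 9 lower (24.3%), and of 17 ATF6 targets 3 (17.6%) and 5 (29.4%). All genes gave 23.2% and 22.4%. With the offsets the counts were 6 and 8 for XBP1s targets and 2 and 5 for ATF6 targets. Without C4-2B replicate 1, 7 XBP1s targets were higher. HSP90B1, the chaperone GRP94, fell to 2215 ± 261 CPM in C4-2B against 3163 ± 223 CPM in LNCaP, and SDF2L1, a partner of BiP, rose to 15.6 ± 4.44 CPM in C4-2B against 5.63 ± 1.55 CPM in LNCaP. PERK-ATF4-CHOP targets leaned higher, with 16 of 40 higher (40%) and 2 lower (5%), against 23.2% and 22.4% of all genes. With the offsets 10 were higher and 6 lower. ATF4 had 433 ± 104 CPM in C4-2B against 386 ± 51.8 CPM in LNCaP and DDIT3, which encodes CHOP, 32.8 ± 10.2 CPM in C4-2B against 27.7 ± 1.90 CPM in LNCaP, neither called. The largest of these rises was SLC7A5, the transporter of large neutral amino acids, with 102, 175, 154 and 147 CPM in the C4-2B libraries, against 7.10, 7.55, 7.13 and 7.74 CPM in the LNCaP libraries (log2 change 4.29, SE 0.17, adjusted p = 1.5e-10). Every C4-2B library lay many times above every LNCaP library. SLC7A1, the transporter of cationic amino acids, had 489, 644, 558 and 496 CPM in the C4-2B libraries, against 205, 213, 203 and 226 CPM in the LNCaP libraries (log2 change 1.37, SE 0.12, adjusted p = 5.9e-07). The cytosolic chaperone HSP90AA1 had 3342 ± 497 CPM in C4-2B against 1772 ± 148 CPM in LNCaP (log2 change 0.92, SE 0.13, adjusted p = 7.4e-05), and HMGB1, a chromatin protein, 2418 ± 213 CPM in C4-2B against 935 ± 77.1 CPM in LNCaP (log2 change 1.37, SE 0.12, adjusted p = 5.4e-07).

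The study's knockdown target, MOCOS, differed little between the lines. It sulfurates the molybdenum cofactor that xanthine dehydrogenase and aldehyde oxidase need. MOCOS had 31.4, 32.4, 28.7 and 28.4 CPM in the C4-2B libraries, against 23.9, 23.2, 23.0 and 22.5 CPM in the LNCaP libraries (log2 change 0.38, SE 0.11, adjusted p = 0.013), a small difference without overlap, and it was not called in a fit of all 32 libraries. XDH, the enzyme that forms uric acid, had 1.93, 1.69, 1.94 and 1.45 CPM in the C4-2B libraries, against 4.75, 3.95, 4.998 and 4.05 CPM in the LNCaP libraries (log2 change -1.33, SE 0.21, adjusted p = 0.00017). AOX1, aldehyde oxidase, was under the filter, with 0.161, 0, 0.125 and 0.138 CPM in the C4-2B libraries, against 0.267, 0.114, 0.492 and 0.0880 CPM in the LNCaP libraries. Of 19 tested genes that break down purines or build the molybdenum cofactor 6 were higher and 3 lower, 47.4% called against 45.5% of all genes (4 and 4 with the offsets). NT5C2, a cytosolic nucleotidase, fell to 101 ± 15.7 CPM in C4-2B against 199 ± 4.13 CPM in LNCaP, MARC1, another molybdenum enzyme, rose to 198 ± 18.9 CPM in C4-2B against 118 ± 3.65 CPM in LNCaP, and PNP, purine nucleoside phosphorylase, was not called at 67.5 ± 9.89 CPM in C4-2B against 68.6 ± 4.30 CPM in LNCaP. In purine synthesis and salvage 4 of 18 were higher and 4 lower, 22.2% each against 23.2% and 22.4% of all genes. With the offsets 4 were higher and 3 lower. IMPDH1, which commits purines to guanine nucleotides, had 61.0 ± 12.6 CPM in C4-2B against 26.4 ± 4.80 CPM in LNCaP, PFAS 52.6 ± 4.80 CPM in C4-2B against 26.8 ± 4.78 CPM in LNCaP, and GMPS 181 ± 29.5 CPM in C4-2B against 109.9 ± 9.55 CPM in LNCaP. ADSSL1, of the same list, fell to 1.55 ± 0.322 CPM in C4-2B against 5.26 ± 1.14 CPM in LNCaP (log2 change -1.76). The antioxidant NRF2 targets gave 7 higher (36.8%) and 3 lower (15.8%) of 19, against 23.2% and 22.4% of all genes. With the offsets 5 were higher and 4 lower. GCLC, which limits glutathione synthesis, was higher at 77.1 ± 7.36 CPM in C4-2B against 43.8 ± 2.40 CPM in LNCaP. The quinone reductase NQO1 was lower at 31.1 ± 2.41 CPM in C4-2B against 48.5 ± 2.22 CPM in LNCaP. Without C4-2B replicate 1, 6 NRF2 targets were lower, without C4-2B replicate 2, 5 were, and without LNCaP replicate 1, 1 was.

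Of 30 interferon-response genes 14 were lower and 4 higher (13 and 3 with the offsets), 46.7% lower against 22.4% of all genes. IFIT2 and IFIT5, antiviral RNA-binding proteins, had 9.89 ± 1.73 CPM in C4-2B against 22.1 ± 1.17 CPM in LNCaP and 2.99 ± 0.692 CPM in C4-2B against 7.78 ± 0.977 CPM in LNCaP, and DDX60, a helicase, 6.12 ± 1.09 CPM in C4-2B against 15.5 ± 2.00 CPM in LNCaP. IFI44L ran the other way at 5.94 ± 0.808 CPM in C4-2B against 0.384 ± 0.254 CPM in LNCaP. CD274, the immune checkpoint ligand PD-L1, had 1.02, 0.642, 0.562 and 1.59 CPM in the C4-2B libraries, against 21.9, 17.0, 16.1 and 19.2 CPM in the LNCaP libraries (log2 change -4.27, SE 0.26, adjusted p = 1e-08). HLA-DMA, which loads peptide on class II molecules, had 2.94 ± 0.722 CPM in C4-2B against 19.6 ± 1.12 CPM in LNCaP, B2M, the shared class I subunit, 227 ± 55.1 CPM in C4-2B against 435 ± 51.9 CPM in LNCaP, and the peptide transporter TAP1 12.1 ± 0.703 CPM in C4-2B against 21.2 ± 1.46 CPM in LNCaP. HLA-C was not called at 52.6 ± 15.1 CPM in C4-2B against 49.7 ± 11.2 CPM in LNCaP. Antigen-presentation genes were 4 higher (21.1%) and 6 lower (31.6%) of 19, against 23.2% and 22.4% of all genes, and 2 and 11 with the offsets, so no direction is given for them. The called members named above, CD274, HLA-DMA, B2M and TAP1, are those with the smallest adjusted p, and all were lower. The 4 higher members are not named. Cancer-testis antigens on the X chromosome gave 7 higher (36.8%) and 2 lower (10.5%) of 19, against 23.2% and 22.4% of all genes. Without the filter on low counts 6 were lower, and in the fit of all 32 libraries 4 were. MAGEA1 had 86.8 ± 7.97 CPM in C4-2B against 13.3 ± 2.46 CPM in LNCaP (log2 change 2.70, SE 0.15, adjusted p = 3.8e-09) and MAGEA4 0.278 ± 0.0976 CPM in C4-2B against 11.2 ± 1.18 CPM in LNCaP (log2 change -5.30, SE 0.26, adjusted p = 1.1e-09), opposite directions within a family. GAGE2A had 29.8 ± 10.1 CPM in C4-2B against 13.8 ± 1.41 CPM in LNCaP, and it belongs to a cluster of near-identical copies.

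Of 11 long noncoding RNAs tested from a list drawn up for prostate, 8 were lower and none higher (7 lower with the offsets). That is 72.7% lower before offsets, against 22.4% of all genes. The list also holds GAS5 and ZFAS1, the small nucleolar RNA hosts given above, so it is not confined to prostate-specific RNAs. PCGEM1, a prostate-specific androgen-regulated RNA, had 0.161, 0.0803, 0 and 0.0692 CPM in the C4-2B libraries, against 10.3, 10.4, 9.67 and 9.85 CPM in the LNCaP libraries (log2 change -6.82, SE 0.35, adjusted p = 1.7e-09). SCHLAP1, associated with aggressive prostate cancer, had 3.09 ± 0.374 CPM in C4-2B against 32.1 ± 4.77 CPM in LNCaP (log2 change -3.37, SE 0.17, adjusted p = 1.4e-09). NEAT1, the scaffold of nuclear paraspeckles, had 724 ± 126 CPM in C4-2B against 1561 ± 627 CPM in LNCaP, with the lines overlapping.

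Differences were unevenly spread along chromosomes. The genes with a RefSeq position were cut into 485 windows of 25 neighbours, whose median log2 changes ran from -1.29 to 0.87, with 5% of windows below -0.51 and 5% above 0.49. In 24 windows at least 15 of 25 genes were lower, and in 10 at least 15 were higher. The lowest lay at the end of the long arm of chromosome 6, from SERAC1 to MPC1 (158109519 to 166382940 in GRCh38), where 20 of 25 genes were lower and none higher. A second window on that arm, 84124250 to 96897891, had a median of -1.003 and holds EPHA7. On chromosome 13, from NUPL1 onward (25301625 to 32400268), 21 of 25 genes were higher. That window holds HMGB1 and SLC7A1. Of 443 genes on chromosome 4, 55.3% were lower and 6.09% higher, with a median of -0.45, and UGT2B17, UGT2B15, BMPR1B and TLL1 all lie there. The offsets changed these values little: the medians were -1.12 in the first chromosome 6 window, 0.92 in the chromosome 13 window and -0.40 on chromosome 4. In the siCTRL TG libraries, which share no library with the baseline, the same 3 medians were -1.16, 0.95 and -0.42. All 12 tested genes of the Y chromosome were called lower. Copy number was not measured. The values by window with offsets and with TG were added after seeing the data.

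Zinc finger genes stood out in the window map and were counted after their values were seen. Of 230 tested genes on chromosome 19 whose symbols begin with ZNF, 154 (67.0%) were lower and 8 higher, with a median log2 change of -0.64. These encode mostly KRAB repressors of repeat elements. The other 639 genes of that chromosome gave 281 higher and 51 lower at a median of 0.40, and the 235 ZNF genes elsewhere 39 higher and 63 lower. With the offsets the chromosome 19 ZNF genes were 4 higher and 149 lower, while the other genes of the chromosome were 102 higher and 131 lower at a median of -0.03. In the window from ZNF749 to ZNF329 (57428565 to 58155104) 23 of 25 were lower and none higher. ZNF genes resemble each other in sequence, so reads may be split between them.

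**Figure D4:**
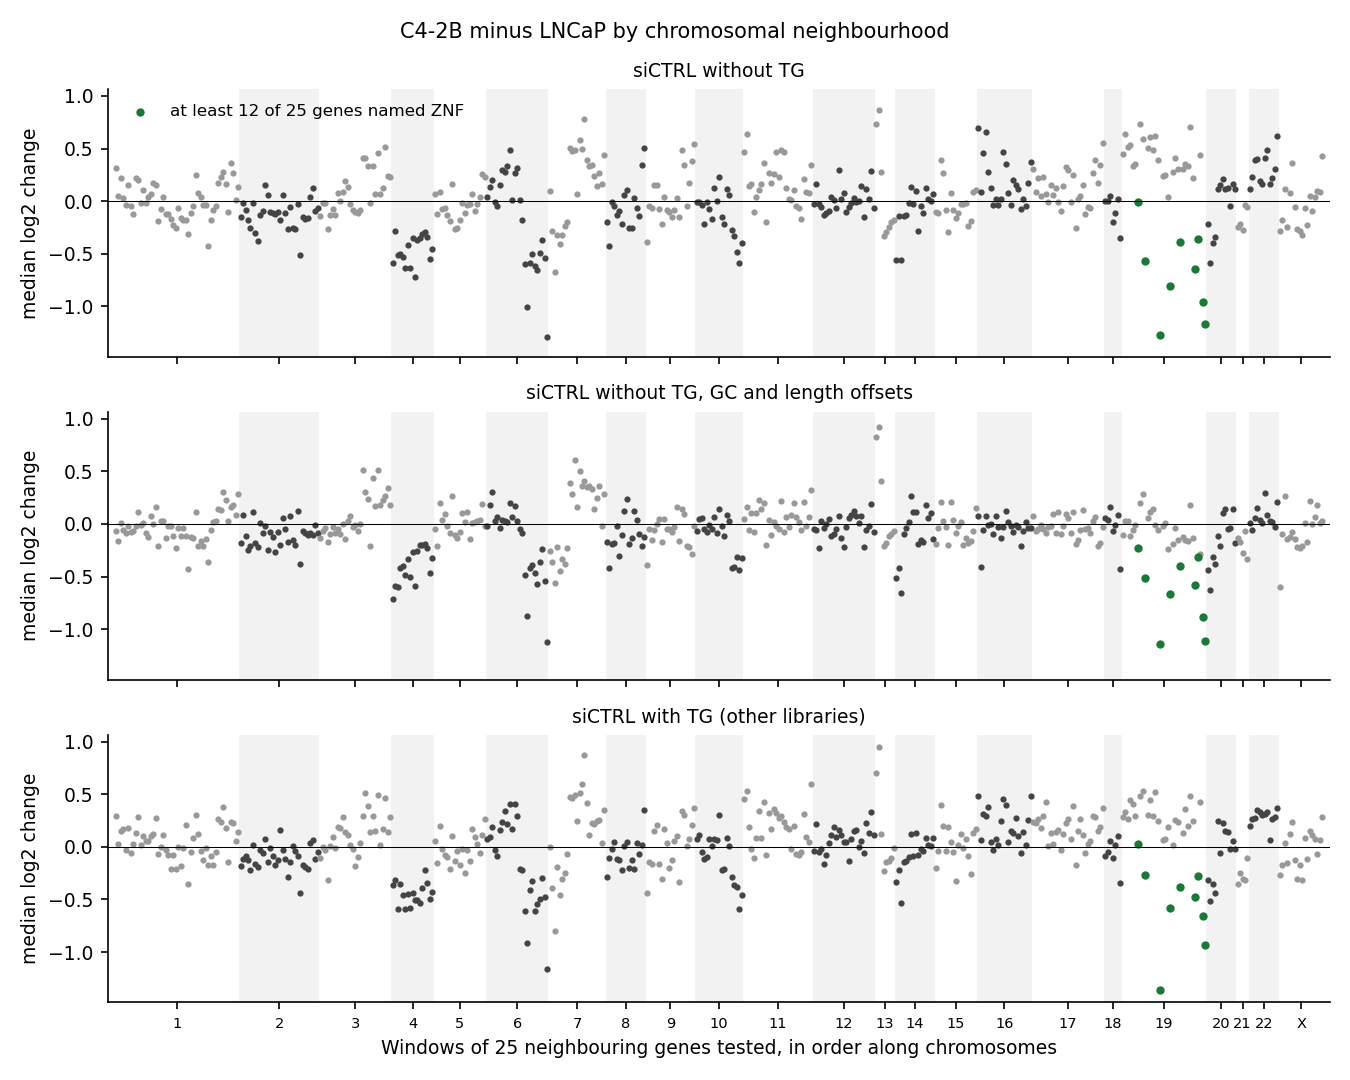
Median log2 change, C4-2B minus LNCaP, in 485 windows of 25 neighbouring tested genes ordered along the chromosomes. The top panel shows siCTRL without TG, the middle panel the same libraries with GC and length offsets, and the bottom panel the siCTRL TG libraries. Blocks on chromosomes 4, 6 and 13 and the green windows rich in ZNF genes keep their place in all 3 panels, while several windows of chromosomes 16 and 19 move toward 0 with the offsets.

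The line difference was set beside the same contrast in the other 3 conditions, which use other libraries. Of all genes tested, 44.7% differed between the lines with TG, 25.7% in siMOCOS cells and 22.5% in siMOCOS cells with TG. Any spread between the pooled siRNAs enters the error of the siMOCOS fits, so their counts are not like for like with those of siCTRL cells. Of the genes called at baseline and tested there, 4262 of 5842 (73.0%) were called in the same direction with TG and 19 in the opposite one. The counts were 2679 of 5874 (45.6%) in siMOCOS cells, with 3 opposite, and 1979 of 5851 (33.8%) in siMOCOS cells with TG, with 23 opposite. Among genes called at 2-fold at baseline the shares were 87.2%, 71.5% and 58.4%. The GC trend differed as well: the rank correlation of log2 change with GC content was 0.38 at baseline, 0.31 with TG, 0.13 in siMOCOS cells and -0.10 in siMOCOS cells with TG. In all 4 conditions 1536 of 5790 genes were called in the same direction, 698 higher and 838 lower.

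KLK3 was called lower in all 4 conditions. KLK3 changed by -3.81 at baseline, -3.19 with TG, -3.88 in siMOCOS cells and -3.50 in siMOCOS cells with TG on the log2 scale. Of the 9 androgen-repressed genes, 8 were lower in each condition. Of the androgen-induced genes, 11 were higher and 15 lower of 44 at baseline (median -0.12), 20 and 13 of 44 with TG (median 0.32), 11 and 11 of 44 in siMOCOS cells (median 0.04), and 10 and 8 of 43 in siMOCOS cells with TG (median 0.14). Whether these counts differ between conditions was not tested. Of all genes tested, 23.2% were higher at baseline, 23% with TG, 12.4% in siMOCOS cells and 11.1% in siMOCOS cells with TG, and 22.4%, 21.7%, 13.3% and 11.4% were lower in that order. G2/M genes were 28 of 32 higher with TG, 2 of 32 higher in siMOCOS cells and 10 of 32 higher in siMOCOS cells with TG. Ribosomal protein genes were lower in 29, 30, 34 and 31 of 74 across the conditions in the order of baseline, TG, siMOCOS and siMOCOS with TG. Oxidative phosphorylation genes were higher in 18, 8, 13 and 5 of 35 in that order.

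For a few genes the line difference with TG differed from that without it. MOCOS had a log2 difference of 0.38 without TG and -0.10 with TG (interaction -0.47, adjusted p = 0.04). With TG it averaged 90.6 ± 2.78 CPM in C4-2B against 97.3 ± 5.16 CPM in LNCaP. SLC7A5 had 4.29 without TG and 2.6 with TG (adjusted p = 6.1e-05), averaging 190.1 ± 9.88 CPM in C4-2B against 31.4 ± 1.95 CPM in LNCaP. ICAM1 averaged 10.7 ± 1.75 CPM in C4-2B against 0.547 ± 0.302 CPM in LNCaP with TG, and the interaction had an adjusted p of 0.0018. CD274 had -4.27 without TG and -2.35 with TG (adjusted p = 0.022). HMOX1, heme oxygenase, had 1.01 without TG and -0.63 with TG (adjusted p = 0.012).

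**Figure D5:**
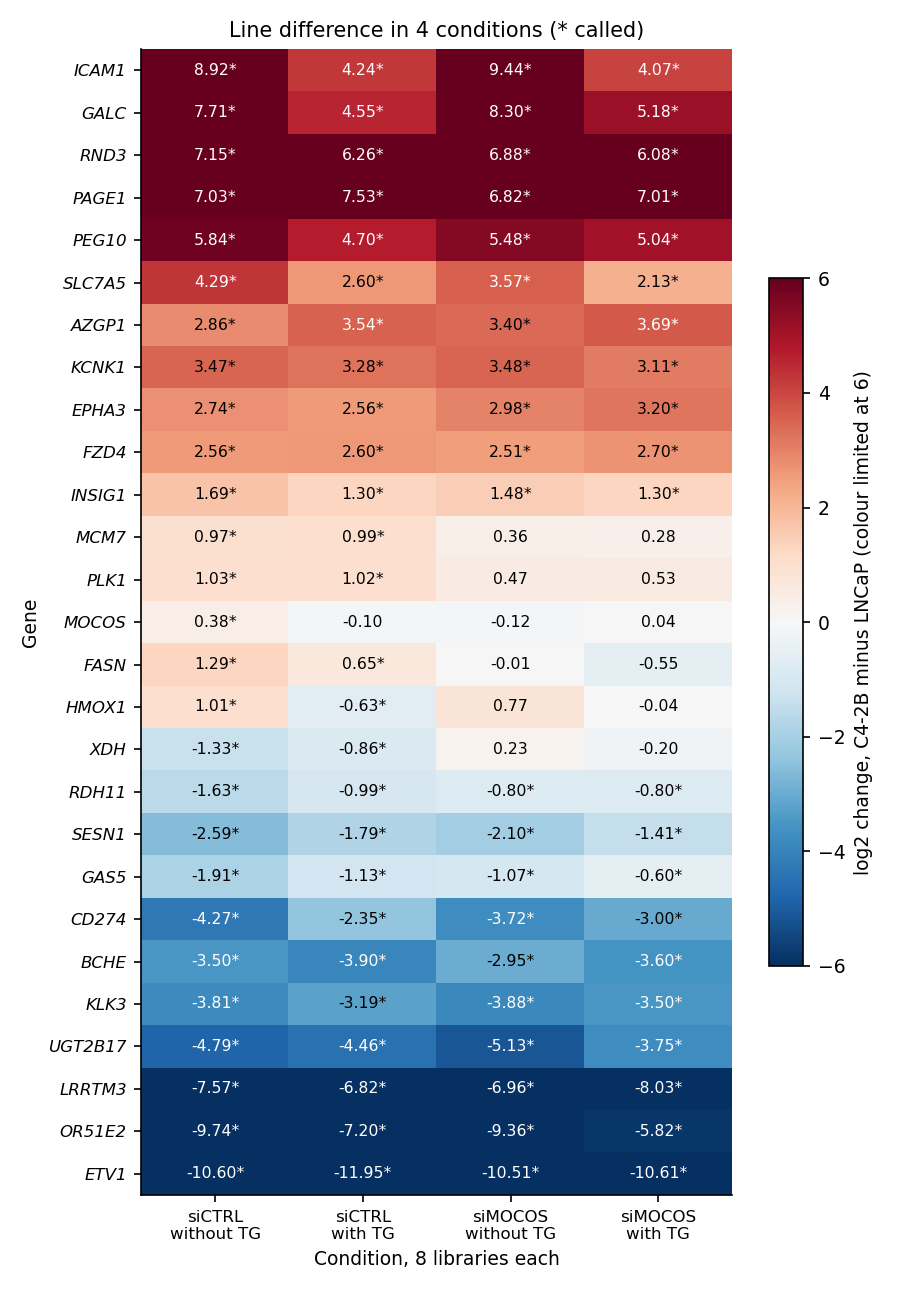
Fitted log2 change, C4-2B minus LNCaP, for 27 of the named genes in the 4 conditions, 8 libraries each; an asterisk marks an adjusted p under 0.05 and the colour is limited at 6. ICAM1, GALC, RND3, LRRTM3, OR51E2 and ETV1 have few counts in a single line, so their fitted values depend on the prior count. Genes called at baseline and not in siMOCOS cells without TG include FASN, XDH, PLK1, MCM7 and MOCOS, the knockdown target.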

How the data were processed

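RNA was sequenced as strand-specific polyA libraries, 4 for each of 8 groups. The authors deposited length-scaled expected counts for 29744 genes. Of values above 0, 99.9987% were not whole (tolerance 1e-6), and values were rounded before fitting. Tools listed in the submitters' processing notes, without their roles, were Salmon 1.5.2 and STAR 2.6.1d, with FastQC 0.11.9, cutadapt 3.4 and Trim Galore 0.6.7, on build hg38. No source used here gives the annotation or the use of strand in counting.

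The 8 baseline libraries alone were fitted with edgeR 4.0.16 (R 4.3.3; filterByExpr, TMM scaling, quasi-likelihood F-test, Benjamini-Hochberg adjustment over all genes tested), on 6 residual degrees of freedom. CPM used TMM library sizes. Genes at 0 in a line were given a bound from 3 counts over that group, and low counts a 95% exact Poisson interval. Both cover counting error only, and both treat the rounded estimates as if they were counted reads. Depth was 12144109 to 19885479 counts per library. The script was tested on simulated data. Alternatives included DESeq2 1.42.0, limma 3.58.1, other scalings, no filter, GC and length offsets, a replicate block and leaving out each library.

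Genes were named by rule: KLK3, MOCOS, XDH and AOX1; the 12 largest rises and 12 largest falls among called genes with at least 5 CPM and no overlap; the 5 largest CPM differences each way; and up to 4 called members per list. Some further list members were named after their values were seen. The members and lists were chosen with earlier results of these data known. Counts by condition and values by chromosome window with offsets were added after seeing the data. Promoter windows and gene positions came from RefSeq GRCh38.p14, which matched 24849 genes. Some genes and a gene list that the rule or the lists include are not reported here.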

Additional observations from a re-analysis of the deposited data

Results flagged for a closer look

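In 28 of 310 groups of 4 libraries, 1 library stood far from the other 3 for a named gene, 9.03%. In 8 of these groups the other 3 libraries were at 0, which sets the gap by itself. Without such groups 20 of 302 remained, 6.62%, beside the 1 in 20 that chance gives. In the sentences that follow, the value of the far library is set beside the range of the other 3 of its line. C4-2B replicate 1 stood apart for ETV1 (0.589 CPM against 0 to 0.0803), HOXB13 (181 CPM against 256 to 256), ICAM1 (15.9 CPM against 21.3 to 21.9), NDRG1 (158 CPM against 208 to 215) and NT5C2 (124 CPM against 91.4 to 96.7). C4-2B replicate 2 stood apart for CXCL12 (5.86 CPM against 3.74 to 3.91), F5 (0.722 CPM against 0.437 to 0.485), MARC1 (169.9 CPM against 204 to 210.0), NR2F2 (181 CPM against 156 to 159) and PEG10 (343 CPM against 190.4 to 209). C4-2B replicate 4 stood apart for IGFBP5 (2.98 CPM against 3.77 to 3.87). LNCaP replicate 3 stood apart for CYP1B1 (0.0819 CPM against 0.160 to 0.176) and SRD5A1 (16.8 CPM against 18.4 to 18.7). LNCaP replicate 4 stood apart for AZGP1 (24.0 CPM against 20.2 to 20.7), ECHDC1 (10.1 CPM against 14.04 to 14.5), ERBB2 (112 CPM against 182 to 188), HIF1A (346 CPM against 263 to 276), MARC1 (112 CPM against 119 to 120.2), OR51E2 (172 CPM against 114 to 121) and XBP1 (73.4 CPM against 64.1 to 65.0). A further set of genes had counts in a single library of a line in which the other 3 were at 0, which were DENND2D (0.0534 CPM in LNCaP replicate 1), DNAJC15 (0.0692 CPM in C4-2B replicate 4), ICAM1 (0.114 CPM in LNCaP replicate 2), LOC102724843 (0.214 CPM in C4-2B replicate 1), MKX (0.0819 CPM in LNCaP replicate 3), RGL3 (0.0534 CPM in LNCaP replicate 1), SLC25A43 (0.172 CPM in LNCaP replicate 2) and TRIM49D2P (1.02 CPM in C4-2B replicate 1).

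The line difference with TG differed from that without TG for 12 named genes by the interaction test of edgeR's quasi-likelihood fit (adjusted p under 0.05). The interaction, as the log2 line difference with TG minus that without, was positive for OR51E2 (2.56), AZGP1 (0.69), RDH11 (0.65), SYT4 (0.72), CD274 (1.93) and SESN1 (0.81). It was negative for MOCOS (-0.47), BOLA2 (-10.87), ICAM1 (-4.71), GALC (-3.17), SLC7A5 (-1.68) and HMOX1 (-1.63). BOLA2, ICAM1, GALC and OR51E2 were near 0 counts in a line without TG, so the size of their value depends on the prior count.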

How the results depend on the processing

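The counts of genes called higher and lower stayed within 1.5 times their reported values under every alternative run. Leaving out each library in turn gave 2506 to 3355 genes higher and 2435 to 3220 lower, and at 2-fold 939 to 1205 higher and 903 to 992 lower. DESeq2 called 3185 higher and 2938 lower, and limma voom 2907 and 2955. Same-numbered libraries correlated at 0.24, -0.08, 0.21 and -0.19, and 2 of 4 C4-2B libraries matched their own number best. These correlations also carry the GC trend of each library, so they cannot tell whether replicate numbers pair the libraries. With the replicate number as a block, 2926 genes were higher and 2913 lower, and at 2-fold 996 and 921. With the block and the GC and length offsets together these were 2392 and 3319, and 690 and 1001. No gene named by the rule changed direction under any alternative run. RNR1 lost its call with DESeq2 (log2 change -0.78, adjusted p = 0.13) and without C4-2B replicate 1, 3 or 4 or LNCaP replicate 1 or 4 (adjusted p 0.060 to 0.15 over these). RN7SL2 lost it with the offsets (adjusted p = 0.19), MOCOS in the fit of all 32 libraries (adjusted p = 0.095), and ATF6 and HMOX1 with the offsets and block together. The cause was not tested. The block alone changed no call of a named gene. Without the filter on low counts, 12 steroid genes were lower in place of 7, neuroendocrine genes were 7 higher and 5 lower in place of 4 and 2, 11 TGF-beta and BMP genes were higher in place of 7, 5 NRF2 targets lower in place of 3, 6 cancer-testis antigens lower in place of 2, 3 growth factor genes lower in place of 1, and 2 basal markers lower in place of 1. In the fit of all 32 libraries, 4 neuroendocrine genes, 4 cancer-testis antigens, 3 G1/S genes, 5 NRF2 targets and 2 growth factor genes were lower, and 1 ATF6 target was higher in place of 3. In the fit of the 16 siCTRL libraries, 7 NRF2 targets and 2 growth factor genes were lower. In that fit and with DESeq2, 7 XBP1s targets were higher in place of 4. With upper quartile scaling 1 oxidative phosphorylation gene was lower in place of 2. Levels under about 1 CPM rest on few counts at these depths.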
